A study of Mus musculus with 23 samples.

Results

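Lipid-associated macrophages are tissue macrophages that take up and break down large amounts of lipid. They carry Trem2, a lipid-sensing surface receptor that signals through the adaptor Tyrobp, and they are rich in scavenger receptors, fatty acid carriers, lysosomal proteins and secreted factors such as osteopontin and metalloelastase. In tumors such cells are known as one state of tumor-associated macrophages. The 10 genes followed here are Gpnmb, Mmp12, Lyz2, Lgals3, Cd68, Trem2, Spp1, Wfdc17, Cd36 and Fabp5, out of 47643 genes listed in the deposited tables. They were selected on measured values of these same libraries, because Gpnmb, Mmp12 and Lyz2 were far lower in KO_IgG replicate 4 and in the KO_gdTCR libraries than elsewhere, so that difference is described below without a test. All 10 passed a minimum of 0.5 reads per 1000000 reads.

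The data are 23 libraries of mammary tumors from female C57BL/6 mice that all carry the polyoma middle T oncogene (PyMT), a transgene that drives tumors in the mammary epithelium. In the neutralization experiment, PyMT WT mice received 100 µg of human IgG1 as isotype control (IgG, 5 libraries) or of an antibody against the cytokine IL-38 (anti-IL-38, 6 libraries) weekly for 5 weeks, starting when the first tumor measured 0.6 cm. In the γδ TCR experiment, treatment began at 13 weeks of age and lasted 5 weeks, with 500 µg first and 200 µg thereafter. PyMT WT mice received Armenian hamster IgG (WT_IgG, 4 libraries), and PyMT mice lacking IL-38 received the same IgG (KO_IgG, 4 libraries) or an antibody that blocks the γδ T-cell receptor (KO_γδTCR, 4 libraries, written KO_gdTCR below). Whole tumors were dissociated, and RNA was then isolated. Fewer cells of a type and less RNA per cell therefore cannot be told apart. No WT tumors with γδ TCR blockade were analysed here.

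The libraries held 6273049 to 15879164 gene reads each. Il1f10, the gene of IL-38, had 0 reads in all 23 libraries, which allows up to 0.189 to 0.478 RPM (reads of a gene per 1000000 reads of its library), so these data cannot check the genotype. KO_IgG replicate 4 and the 4 KO_gdTCR libraries stood apart from the other 18 in the whole transcriptome. Their totals were lower (6273049 to 8794202 against 10138353 to 15879164). Processed pseudogenes took 1.31 to 1.98% of their reads against 0.0943 to 0.191% elsewhere, and Gm42418, a transcript that overlaps ribosomal RNA, took 11.3 to 20.1% against 2.62 to 5.70%. The part of these differences in the levels below was not tested, and the knockout test on the members is given with and without replicate 4. Other comparisons used replicates 1 to 3 of KO_IgG unless replicate 4 is named.

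The tissue held macrophages by its markers. All 15 genes of a macrophage identity list had reads in every group, and their summed level was 2536 to 4392 RPM in the 18 libraries and 1326 to 2071 RPM in the 5 libraries. The 6 markers of osteoclasts, which also express Gpnmb and Atp6v0d2, measured 99.7 to 208 RPM together in the 18 libraries and 51.6 to 83.2 RPM in the 5, without overlap. Most of this was Acp5, with means of 109 and 37.7 RPM, and Ctsk had 20.8 and 20.2 RPM, while Calcr and Oscar had at most 4 and 3 reads in a library. The part of such cells in the levels of the members was not tested. Tyr and Tyrp1, markers of melanocytes, another source of Gpnmb, had at most 2 reads each, and the 5 melanocyte markers together reached at most 1.63 RPM. Of the neutrophil markers, Ly6g had 0 reads in 20 of the 23 libraries, and the 8 markers together measured 22.7 to 168 RPM in the 18 libraries and 9.25 to 36.1 RPM in the 5. The monocyte list of 7 genes measured 122 to 360 RPM and 101 to 295 RPM, respectively.

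Promoters are shown for the 3 genes on which the selection rested and for Spp1, which behaved differently from them. RefSeq promoters on GRCm38.p6, from 250 bases before to 50 bases after a transcription start, were found for 9 of the 10 genes, with 11 starts in all, and not for Fabp5. Sequence motifs of 4 factors or factor families known in macrophages were searched on both strands. Capitals mark every match in the sequences, which are written in the direction of transcription.
Gpnmb, chr6:49036268-49036567, + strand: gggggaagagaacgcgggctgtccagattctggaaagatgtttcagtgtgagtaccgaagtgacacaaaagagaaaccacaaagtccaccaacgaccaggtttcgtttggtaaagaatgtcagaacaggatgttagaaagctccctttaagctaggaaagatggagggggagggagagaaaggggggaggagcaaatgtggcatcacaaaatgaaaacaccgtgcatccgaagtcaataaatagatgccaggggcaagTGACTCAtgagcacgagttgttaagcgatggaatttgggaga
Mmp12, chr9:7344147-7344446, + strand: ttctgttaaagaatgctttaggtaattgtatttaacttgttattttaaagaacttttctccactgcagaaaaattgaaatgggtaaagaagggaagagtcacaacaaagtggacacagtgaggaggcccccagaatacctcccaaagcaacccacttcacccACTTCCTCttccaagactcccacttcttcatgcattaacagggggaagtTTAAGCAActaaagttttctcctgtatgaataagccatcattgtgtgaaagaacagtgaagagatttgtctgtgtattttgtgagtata
Lyz2, chr10:117282223-117282522, - strand: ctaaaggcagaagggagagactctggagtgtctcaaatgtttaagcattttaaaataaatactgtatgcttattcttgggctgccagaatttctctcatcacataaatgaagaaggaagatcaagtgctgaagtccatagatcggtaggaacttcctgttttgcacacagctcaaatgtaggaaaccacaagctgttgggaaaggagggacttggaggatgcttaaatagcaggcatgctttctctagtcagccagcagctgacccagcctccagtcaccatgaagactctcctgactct
Spp1, chr5:104434861-104435160, + strand: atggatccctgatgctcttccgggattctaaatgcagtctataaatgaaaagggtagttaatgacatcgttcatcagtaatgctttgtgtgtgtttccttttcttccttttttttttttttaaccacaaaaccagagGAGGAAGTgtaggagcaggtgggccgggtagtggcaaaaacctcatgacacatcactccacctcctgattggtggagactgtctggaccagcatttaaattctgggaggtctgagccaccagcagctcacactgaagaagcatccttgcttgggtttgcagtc

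The searched motifs were GAGGAAGT for PU.1, the myeloid master regulator encoded by Spi1, TGANTCA for AP-1, TCACNTGA for MITF and the TFE factors of lysosomal genes, and TTGCNNAA for C/EBP factors. No matches of different motifs overlapped in the promoters of the 10 genes. AP-1 letters stood in promoters of Gpnmb, Mmp12, Cd68 and Trem2, against 7.81% of 32851 promoters. In Gpnmb they began 9 bases after the start. PU.1 letters stood in promoters of Mmp12 and Spp1 (3.20% of all promoters), beginning 88 and 113 bases before the start. MITF and TFE letters stood in promoters of Mmp12 and Lgals3 (4.18%), and C/EBP letters in those of Mmp12, Cd68, Trem2 and Spp1 (10.8%). For Mmp12, the AP-1 and MITF matches belonged to a start farther downstream whose sequence is not shown. The same holds for the C/EBP match of Spp1. Which start is used in these tumors was not determined for either gene. The Lyz2 promoter held none of the 4. N stands for any base. The letters and shares for AP-1 and for MITF and TFE therefore also take in sequences outside the usual sites of these factors. The only AP-1 match of Trem2 read TGAATCA, and the MITF and TFE match of Lgals3 read TCAGGTGA. Neither is a usual site of the factors named. A match is a description of the letters in these windows only.

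Gpnmb encodes a transmembrane glycoprotein of lysosomes and is a leading marker of lipid-laden macrophages. It measured 7313, 5572, 4085, 4694 and 6365 RPM in the 5 IgG libraries. In the anti-IL-38 libraries it ranged from 3065 to 4820 RPM with a median of 3520 RPM. WT_IgG tumors had 3863, 4920, 3630 and 2698 RPM. KO_IgG tumors had 2646, 2676 and 3389 RPM in replicates 1 to 3 and 118 RPM in replicate 4, and KO_gdTCR tumors had 25.5, 32.7, 32.5 and 107 RPM. The 18 libraries thus formed a continuous range, whereas the 5 libraries lay below all of them without overlap.

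Mmp12, the macrophage metalloelastase, had 2741, 1726, 1509, 1602 and 2123 RPM in IgG tumors and 1206 to 1888 RPM (median 1317) in anti-IL-38 tumors. It had 1364, 1711, 1352 and 1022 RPM in WT_IgG and 986, 1002 and 1411 RPM in KO_IgG replicates 1 to 3. KO_IgG replicate 4 had 45.1 RPM, and the KO_gdTCR libraries had 4.49, 8.29, 2.23 and 42.8 RPM, which came from 14 to 376 reads. Mmp12 showed the deepest gap of the 10 genes between KO_gdTCR and KO_IgG replicates 1 to 3.

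Lyz2, the lysozyme of myeloid cells, had 16563, 12323, 9292, 10376 and 13222 RPM in IgG tumors and 7263 to 11228 RPM (median 8193) in anti-IL-38 tumors. In WT_IgG it had 8339, 10757, 8186 and 6315 RPM, and in KO_IgG replicates 1 to 3 it had 5801, 5888 and 8451 RPM. KO_IgG replicate 4 had 494 RPM and KO_gdTCR had 86.5, 82.6, 204 and 372 RPM, all below that range. Its near-identical copy Lyz1, the lysozyme of Paneth cells, had 3.09 to 13.5 RPM in the 18 libraries. How the counting treated reads that fit both copies is not given in the sources used here, so the level of Lyz2 is uncertain to that extent.

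Trem2 had 249, 224, 175, 194 and 259 RPM in IgG tumors, 127 to 194 RPM (median 144) in anti-IL-38 tumors, 151, 189, 148 and 118 RPM in WT_IgG, and 107, 107 and 137 RPM in KO_IgG replicates 1 to 3. KO_IgG replicate 4 had 14.2 RPM, and KO_gdTCR libraries had 7.24, 7.36, 8.93 and 17.3 RPM. Wfdc17, a small secreted protein of macrophages, ranged from 324 to 894 RPM in the 18 libraries and from 6.19 to 34.1 RPM in the 5. Lgals3 (galectin-3) ranged from 1683 to 4042 RPM and from 70.8 to 150 RPM. Cd68, a lysosomal glycoprotein used to stain macrophages, ranged from 178 to 450 RPM and from 21.1 to 43.7 RPM. Fabp5, a carrier of fatty acids, ranged from 173 to 399 RPM and from 17.6 to 31.4 RPM. Each of these 5 genes was lower in every one of the 5 libraries than in any of the 18.

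Cd36, the scavenger receptor and fatty acid translocase, was closer between the libraries. It had 377, 285, 223, 250.9 and 334 RPM in IgG tumors, 169 to 260 RPM (median 202) in anti-IL-38 tumors, 217, 276, 214 and 155 RPM in WT_IgG, and 160, 162 and 198 RPM in KO_IgG replicates 1 to 3. KO_IgG replicate 4 had 78.5 RPM and KO_gdTCR libraries had 76.5, 66.9, 79.1 and 80.8 RPM. The 5 libraries were again all below the 18, but were nearly equal among themselves.

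Spp1, which encodes osteopontin, did not share the gap in every library. It had 1174, 741, 1079, 818 and 869 RPM in IgG tumors, 552 to 981 RPM (median 772) in anti-IL-38 tumors, 1112, 857, 987 and 693 RPM in WT_IgG, and 1130, 957 and 974 RPM in KO_IgG replicates 1 to 3. KO_IgG replicate 4 had 471 RPM and the KO_gdTCR libraries had 374, 1249, 226 and 384 RPM. KO_gdTCR replicate 2 thus had the highest Spp1 level of all 23 tumors, and the groups overlapped. The overlap of the 5 libraries with the 18 rested on this library alone. The rest of the 5 had 226 to 471 RPM, below the lowest of the 18 (552 RPM).

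**Figure D1:**
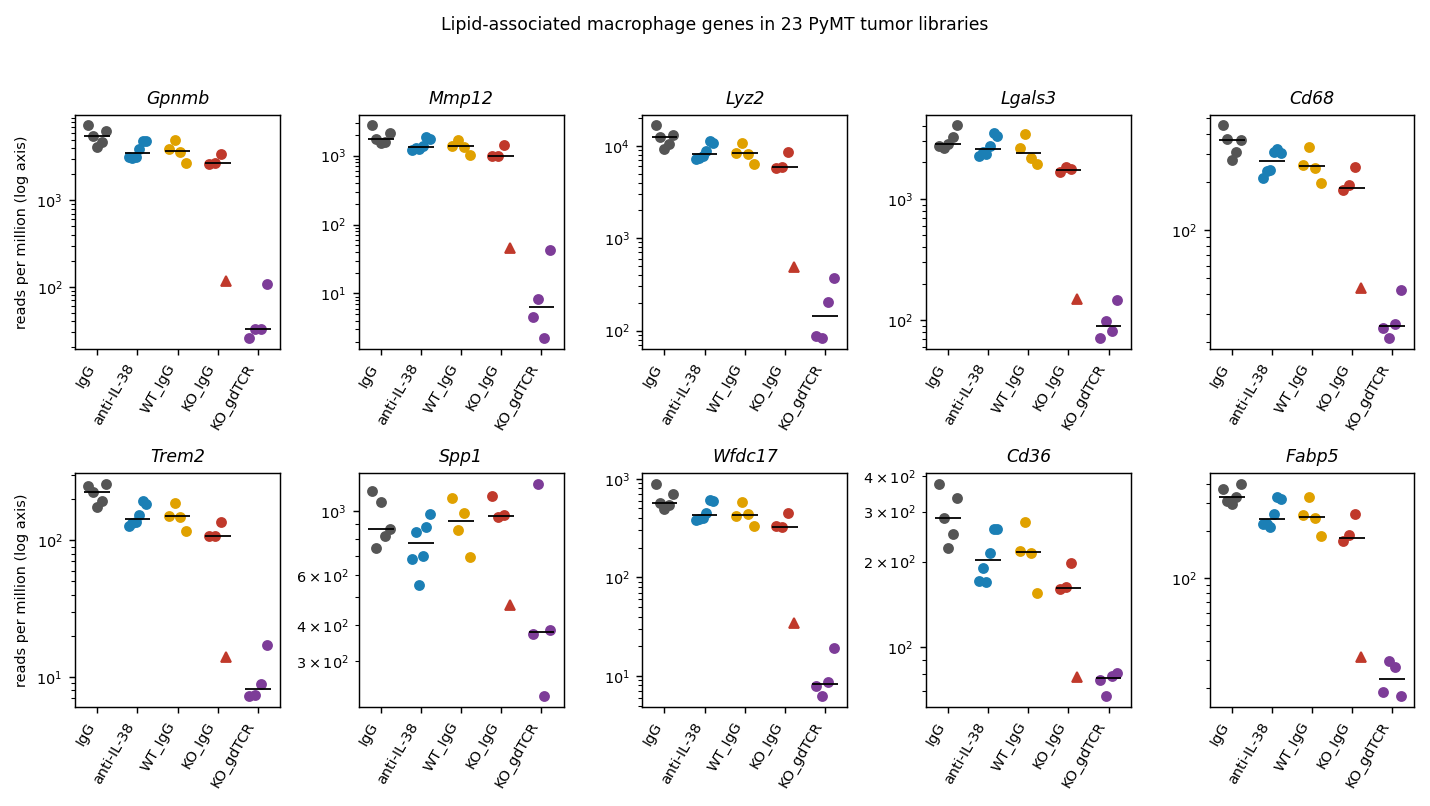
Level of each of the 10 genes in every library, in RPM on a log axis, by group. Points are single libraries, the triangle is KO_IgG replicate 4 and the bar is the group median over all its libraries. In every panel but that of Spp1, the triangle and the KO_gdTCR points lie below all other points.

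The 10 genes together took 1.32 to 3.29% of all reads in the 18 libraries (median 1.87%) and 0.0695 to 0.160% in the 5 (median 0.123%). Against KO_IgG replicates 1 to 3, the mean level in KO_gdTCR was lower by 78.4-fold for Mmp12, 58.6-fold for Gpnmb, 36.04-fold for Lyz2, 35.2-fold for Wfdc17 and 17.7-fold for Lgals3. The fold was 11.5 for Trem2, 8.83 for Fabp5, 7.22 for Cd68, 2.29 for Cd36 and 1.83 for Spp1. Single KO_gdTCR libraries weighed on some of these folds. Without replicate 4 the fold was 226 for Mmp12 and 96.1 for Gpnmb, and without replicate 2 it was 3.11 for Spp1. KO_IgG replicate 4, which had received IgG, was itself 25.1-fold lower than replicates 1 to 3 for Mmp12, 24.7-fold for Gpnmb, 13.6-fold for Lyz2, 2.21-fold for Cd36 and 2.17-fold for Spp1. With replicate 4 counted among the controls, the folds between KO_IgG and KO_gdTCR were 59.6 for Mmp12, 44.6 for Gpnmb and 27.7 for Lyz2. Taken as differences of mean log2(RPM + 0.1), which weigh single high libraries less than the folds of means above, the values for KO_gdTCR against KO_IgG replicates 1 to 3 were under -1 for all 10 genes (-1.18 for Spp1), and for 7.91% of the 16527 genes compared. Since the genes were chosen by this contrast, nothing is read from their count. In all these folds, γδ TCR blockade and the other traits of the KO_gdTCR libraries cannot be told apart. The median over all genes was -0.15 on RPM with replicate 4 included and 0.02 on the authors' normalized counts.

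Other genes of the program were lower in the 5 libraries to very different degrees. Of the Trem2 signalling and surface partners, Clec4d, a C-type lectin, had a mean of 90.4 RPM in the 18 libraries and 1.67 RPM in the 5, and Tyrobp had 462 and 42.7 RPM. Apoe, the apolipoprotein secreted by macrophages, had 4822 and 2136 RPM. Among genes of lipid handling, lipoprotein lipase (Lpl) had 1457 and 90.7 RPM, and the scavenger receptor Msr1 had 117 and 9.62 RPM, whereas the cholesterol exporter Abca1 had 107 and 75.3 RPM. Atp6v0d2, a subunit of the lysosomal proton pump, had 263 and 6.30 RPM, against 468 and 367 RPM for the lysosomal membrane protein Lamp2. The transcription factor gene Spi1 had 146 and 15.3 RPM, while Pparg, the lipid-sensing nuclear receptor, had 3.37 and 20.2 RPM. Macrophage identity genes were closer together. C1qa, a complement component, had 418 and 305 RPM, and Cd14, the lipopolysaccharide co-receptor, had 98.8 and 129 RPM, whereas Csf1r, the receptor of colony stimulating factor 1, had 632 and 134 RPM and Adgre1 (F4/80) had 98.9 and 24.8 RPM.

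A second pattern lay within the 18 libraries, which the selection did not contrast with one another. Gpnmb itself differed 2.76-fold between the lowest and the highest of these tumors, a coefficient of variation of 31.7%. The level of most other members divided by that of Gpnmb hardly differed. The ratio of Lyz2 to Gpnmb was 2.08 to 2.49 in all 18 libraries, a coefficient of variation of 4.51%. For Trem2 the ratio was 0.0340 to 0.0436 (5.48%), for Cd36 0.0511 to 0.0619 (5.76%), for Wfdc17 0.102 to 0.133 (6.12%) and for Mmp12 0.310 to 0.416 (7.36%). Cd68 (7.95%) and Fabp5 (8.80%) followed closely, Lgals3 less so (15.9%), and Spp1 least (34.0%, with a ratio of 0.133 to 0.427).

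The SD of the log2 ratio was 0.06 for Lyz2, 0.08 for Trem2 and 0.08 for Cd36. Counting error alone gives an SD of 0.0079, 0.033 and 0.028 for these pairs. The SD of the log2 level of Gpnmb itself was 0.43. A mean of at least 0.5 RPM in the 18 libraries was reached by 15704 genes. Their median SD of the log2 ratio to Gpnmb was 0.62, and 24 of them were under 0.1. The IgG group held the 2 libraries that set Lgals3 apart, with ratios of 0.376 and 0.476 in replicates 1 and 2 against 0.526 to 0.803 in the other 16.

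In the 5 libraries these proportions were different. Cd36 per Gpnmb was 0.668 to 3.005, Cd68 0.372 to 0.956, Fabp5 0.164 to 0.911 and Trem2 0.120 to 0.284, each above all 18 other libraries. Lyz2 per Gpnmb was 2.53 to 6.27 and Wfdc17 0.178 to 0.309, also above the 18. Mmp12 alone was not displaced upwards, with 0.0686 to 0.398. Spp1 per Gpnmb was 3.58 to 38.2. The 5 libraries were therefore not lower by a common factor for all 10 genes. Since Gpnmb was itself chosen for its low values there, high ratios to it follow in part from the selection, and nothing more is read from them.

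**Figure D2:**
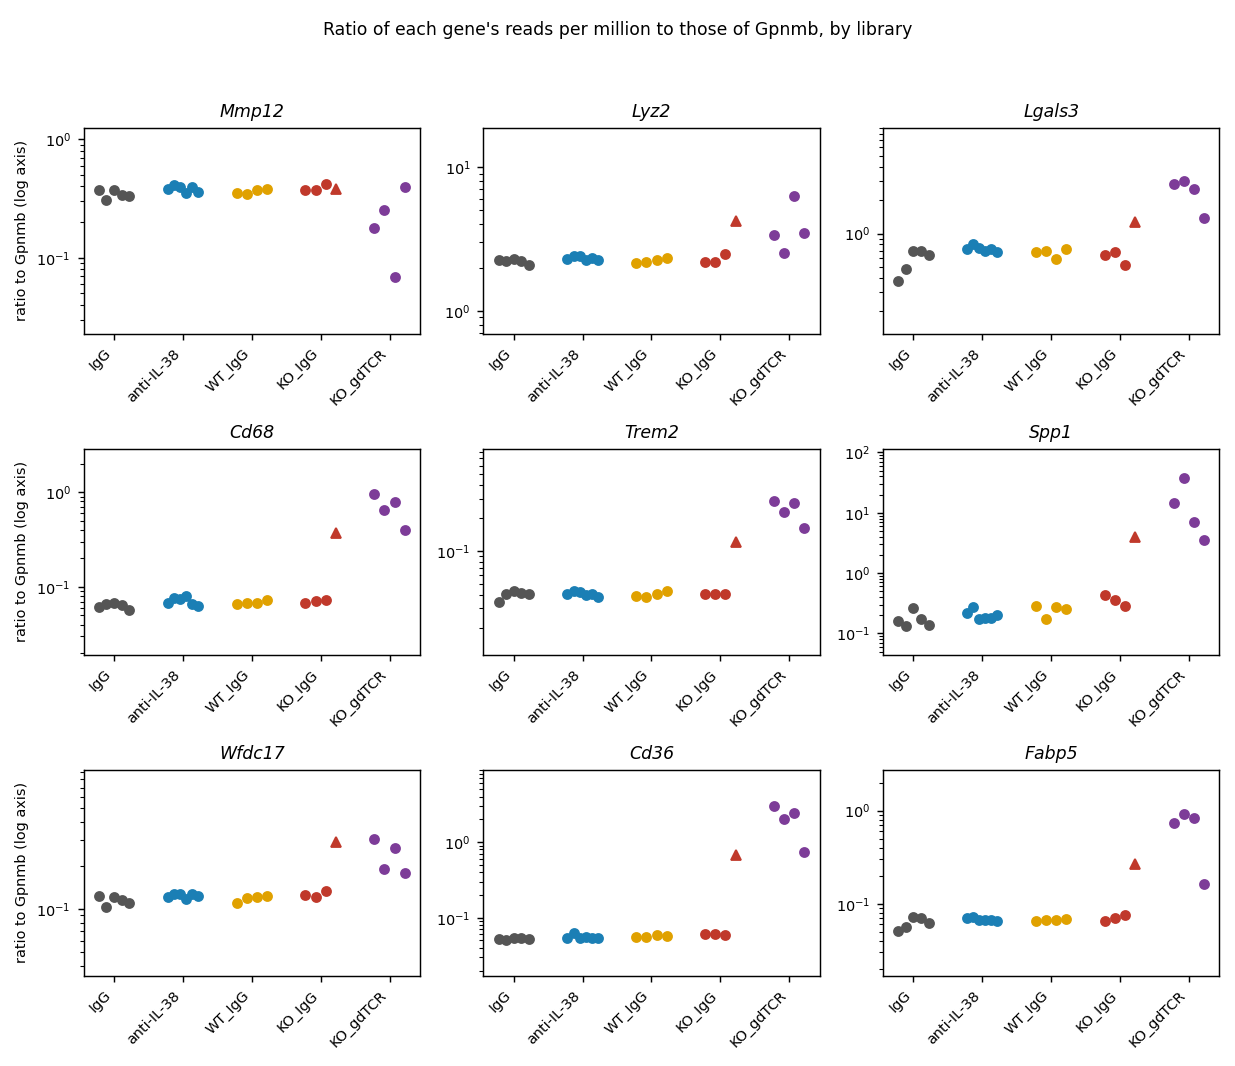
Ratio of the level of each gene to that of Gpnmb in every library, on a log axis, by group. Points are single libraries and the triangle is KO_IgG replicate 4. The ratios of Lyz2, Trem2, Cd36 and Wfdc17 form flat bands over the 18 libraries of the first groups and move away in the 5 others.

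Correlations with Gpnmb were computed on log2(RPM + 0.1) over the 18 libraries after subtracting each group mean, as a description, since the libraries share their totals and composition. Pearson's r was 0.99 for Cd36, 0.98 for Lyz2, 0.98 for Trem2, 0.97 for Wfdc17, 0.96 for Mmp12, 0.95 for Cd68 and 0.92 for Fabp5, but 0.69 for Lgals3 and 0.42 for Spp1. Spearman's rho was 0.90 to 0.98 for the first 7, 0.62 for Lgals3 and 0.47 for Spp1. Over all genes the median r was 0.0074, and 132 of them (0.841%) exceeded 0.9, 7 of these being members. Leaving out the 2 libraries farthest from the median of Gpnmb, WT_IgG replicate 4 and IgG replicate 3, gave 0.91 to 0.98 for the first 7 members. Within the neutralization experiment (11 libraries) r was 0.90 to 0.99 for these 7, and within WT_IgG and KO_IgG replicates 1 to 3 (7 libraries) it was 0.97 to 1.00. For Lgals3 the values within the experiments were 0.59 and 0.86, and for Spp1 they were 0.45 and 0.36.

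The 10 non-members most like Gpnmb were Cybb (r of 0.99), the catalytic subunit of the phagocyte NADPH oxidase, Cd84 (0.99), a SLAM family receptor, Clec7a (0.99), the β-glucan receptor dectin-1, the chemokine Ccl6 (0.99), the Fc receptor Fcgr3 (0.99), the collagenase Mmp8 (0.99), Gm49339 (0.99), Il7r (0.99), the interleukin 7 receptor, Creg1 (0.98), a lysosomal glycoprotein, and C3ar1 (0.98), the receptor of complement fragment C3a. Each of them was also lower in all 5 libraries than in any of the 18. Mmp8 had 198 to 574 RPM in the 18 libraries and 0 to 7.31 RPM in the 5, and Ccl6 had 1423 to 3979 and 12.8 to 103 RPM. Cybb had 895 to 2266 and 132 to 163 RPM.

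This held beyond the named genes. Of 125 non-members with r over 0.9, 110 (88%) were lower in every one of the 5 libraries than in any of the 18, and 105 (84%) had a mean less than 0.5 of that in the 18. Over all 15704 genes the shares were 5.98% and 7.51%. Among the 7729 non-members with r of 0 or less, 0.634% were lower without overlap. The r of a gene came from the 18 libraries alone. However, Gpnmb, to which r refers, was itself chosen for its low values in the 5 libraries. The 15704 genes had to reach a mean of at least 0.5 RPM in the 18, so genes found only in the 5 were left out. The shares are therefore a description and no independent support. Spp1, with the lowest r of the members, was the member without a full gap, which KO_gdTCR replicate 2 alone broke. Cd36, with the highest r, had one of the smallest gaps.

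**Figure D3:**
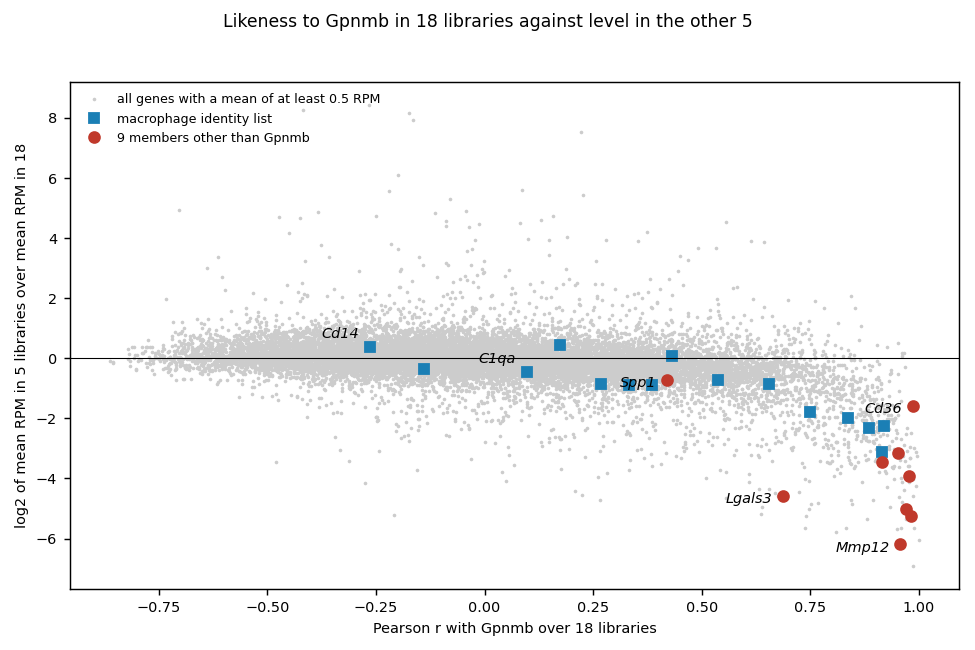
Each gene with a mean of at least 0.5 RPM in the 18 libraries is a point. The x axis is Pearson's r with Gpnmb over these 18 libraries. The y axis is the log2 ratio of mean RPM in KO_IgG replicate 4 and KO_gdTCR to the mean in the 18 (both means + 0.1). Grey points are all genes, blue squares the macrophage identity list and red circles the 9 members other than Gpnmb. Genes with r over 0.9 lie mostly below a log2 ratio of -1, and the bulk of genes lies around 0.

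The likeness divided the gene lists. Among Trem2 signalling and surface partners, 5 of 10 genes had r over 0.9 (Cd84, Clec7a, Itgax, Tyrobp and Clec4d), while Apoe had 0.14 and Cd9, a tetraspanin, -0.40. Among lipid handling genes 4 of 14 did (Lpl, Msr1, the lysosomal lipase Lipa and the lipid droplet protein Plin2), while Abca1 had 0.29 and Scarb1 -0.29. Among lysosomal genes 4 of 14 did (Creg1, Ctss, Atp6v0d2 and Ctsb), while Lgmn had 0.01. Of 13 regulators, Spi1 had 0.96, Irf8 0.88 and Mitf 0.86, against 0.08 for Cebpb and 0.13 for Pparg. Of 15 macrophage identity genes only Csf1r (0.92) and Fcer1g (0.92) exceeded 0.9, and C1qa had 0.10, Cx3cr1 -0.14 and Cd14 -0.26.

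None of the 7 osteopontin receptor genes, 7 tested macrophage ligands or tested marker genes of other cell types exceeded 0.9. The list medians were 0.41 for monocytes, 0.63 for osteoclasts (4 genes), 0.17 for neutrophils, -0.37 for fibroblasts, -0.32 for luminal epithelium and -0.40 for endothelial cells.

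**Figure D4:**
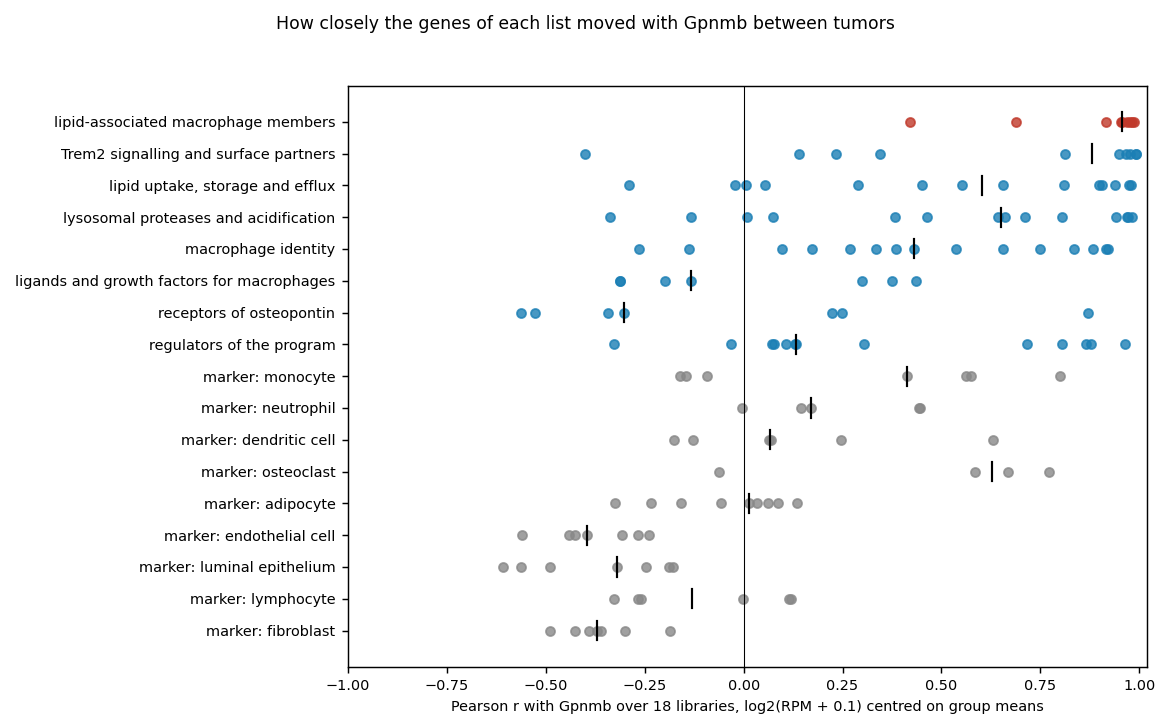
Pearson's r with Gpnmb over 18 libraries for the genes of each list, on log2(RPM + 0.1) centred on group means. Points are genes, red for the members without Gpnmb, blue for other lists of the program and grey for cell type markers, and bars are list medians. Most members lie near 1, and fibroblast, epithelial and endothelial markers lie below 0.

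The mean levels of the groups followed one order for most members. For 8 of 10 genes it ran from IgG over anti-IL-38, WT_IgG and KO_IgG (replicates 1 to 3) down to KO_gdTCR. The last place of KO_gdTCR follows from the selection. Most members were closely correlated across tumors, so they are not separate observations. The share of all genes with this order was not determined, and nothing is read from the count. Cd36 had WT_IgG before anti-IL-38, and Spp1 had KO_IgG first. Leaving KO_gdTCR aside, neighbouring groups overlapped in 29 of 30 cases, the exception being Lgals3 between WT_IgG and KO_IgG. In 9 of these 30 cases the means were apart by more than the larger SD of both groups, 7 of them between IgG and the next group. The contrasts that the selection did not use are tested below.

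Whether neutralizing IL-38 moved these genes was tested between 6 anti-IL-38 and 5 IgG libraries. All 10 genes were lower on average in anti-IL-38 tumors, as were 56.3% of all genes. The median log2 difference of the 10 was -0.42 against -0.05 over all genes, but none passed the test (limma, adjusted over 15513 genes). Trem2 measured 154 ± 28.4 against 220 ± 35.5 RPM (mean ± SD, n = 6 and 5), a log2 difference of -0.52 ± 0.15 (SE, adjusted p = 0.377 by limma). Gpnmb measured 3814 ± 829.4 against 5606 ± 1288 RPM, a log2 difference of -0.55 ± 0.20 (adjusted p = 0.392 by limma). Lgals3 differed least, by -0.17 ± 0.17. For Gpnmb, 4 of 6 anti-IL-38 tumors lay below the lowest IgG tumor and the others lay inside the range of IgG.

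Called genes made up 0% of all genes in this comparison, with 1755 of 15513 at an unadjusted p under 0.05. The other tools called 0 genes (edgeR) and 75 genes (DESeq2), none of them a member. At an unadjusted p under 0.05, 8 of 10 members were lower, against 6.96% of all genes. None was higher, against 4.35%. Leaving out IgG replicate 1 lowered the count to 3, and leaving out the first or the second anti-IL-38 tumor lowered it to 4. It was 5 when anti-IL-38 replicate 3, IgG replicate 2 or IgG replicate 5 was left out. The levels of 8 members were closely correlated across tumors, so they are not separate observations.

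No gene of the accompanying lists was called either. At an unadjusted p under 0.05, 6 of 10 Trem2 partners were lower, with Itgax (CD11c) at -0.44 ± 0.16 and Clec7a at -0.49 ± 0.18 on the log2 scale. Of 14 lipid genes 5 were, with Plin2 at -0.44 ± 0.15 and Lipa at -0.43 ± 0.16. Of 14 lysosomal genes 3 were, with Atp6v0d2 at -0.46 ± 0.17. Of 15 macrophage identity genes 3 were, with Mertk, a receptor for dying cells, at -0.46 ± 0.14 and Fcer1g at -0.41 ± 0.16, and the list median was -0.05. The luminal epithelium list had a median of 0.58 and the fibroblast list of 0.58, with summed levels of 2938 to 20911 RPM in IgG and 4970 to 18511 RPM in anti-IL-38 for the former, and 1193 to 3991 and 1455 to 4441 RPM for the latter. The part of these cells' RNA in the lower members was not tested.

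Among regulators, Mitf (-0.41 ± 0.15) and Spi1 (-0.51 ± 0.20) had the smallest p. Of 7 macrophage ligands, 2 were lower on average, neither at an unadjusted p under 0.05, and Il34, a second ligand of Csf1r, was higher at that limit with 0.90 ± 0.31, with the chemokine Ccl12 at 0.87 ± 0.70. Of the osteopontin receptors, Itga4 was at -0.43 ± 0.17 and Itgb5 at 0.22 ± 0.11. Of the neutrophil markers, S100a8 had 27.7 ± 10.9 against 76.8 ± 50.6 RPM, and the list median of lymphocyte markers was 0.64 (4 tested genes). The whole lymphocyte list summed to only 3.45 to 10.1 RPM in anti-IL-38 and 1.34 to 12.1 RPM in IgG. None of these genes passed the adjusted threshold.

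Whether loss of IL-38 moved the genes was tested between KO_IgG replicates 1 to 3 and the 4 WT_IgG libraries. Here 9 of 10 genes were lower on average in KO tumors and Spp1 was higher, and none passed the test (limma, adjusted over 15918 genes). The median log2 difference was -0.30, against -0.03 over all genes, of which 53.2% were lower. Lgals3 measured 1764 ± 73.6 against 2544 ± 647 RPM (mean ± SD, n = 3 and 4), a log2 difference of -0.49 ± 0.20 (SE, adjusted p = 0.312 by limma), with all 3 KO tumors below all 4 WT tumors. Trem2 differed by -0.36 ± 0.17, Gpnmb by -0.36 ± 0.22 and Spp1 by 0.18 ± 0.18, each with overlapping groups.

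In this comparison 4 genes were called (0.0251% of all genes), and none was a member. All 4 were higher in KO. Scaling by TMM gave 12 higher and 3 lower genes, and DESeq2 373 higher and 113 lower, again without a member. At an unadjusted p under 0.05, 1 member was lower, against 6.24% of all genes, and none was higher, against 8.02%. This count was 6 without WT_IgG replicate 4, 3 without KO_IgG replicate 3, and 0 without WT_IgG replicate 1, WT_IgG replicate 2, KO_IgG replicate 1 or KO_IgG replicate 2. Including KO_IgG replicate 4 moved the median to -1.11 and turned Spp1 to -0.10, and members remained uncalled, with adjusted p of 0.420 to 0.901 (limma).

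Of 15 macrophage identity genes 14 were lower, against 53.2% of all genes. At an unadjusted p under 0.05, 6 of the 15 were lower. Among them, Maf, a macrophage transcription factor, was at -0.55 ± 0.14 and Aif1 (Iba1) at -0.62 ± 0.17. Of 13 regulators 12 were lower, with Cebpa at -0.39 ± 0.14, and Cebpb was higher with 0.46 ± 0.14. Of the Trem2 partners, Syk, the kinase downstream of Tyrobp, was at -0.46 ± 0.17 and Cd9 at 0.56 ± 0.23. In the lipid list Scarb1, a receptor of high-density lipoprotein, was at 0.47 ± 0.17. No lysosomal gene reached an unadjusted p under 0.05, with the progranulin gene Grn at -0.28 ± 0.15. Csf1 (0.53 ± 0.19) and Cx3cl1 (0.49 ± 0.19) led the ligands and Itgb1 (0.41 ± 0.14) and Itga4 (-0.43 ± 0.17) the osteopontin receptors. None of these was called. Monocyte Ccr2 had 45.6 ± 9.37 against 67.9 ± 5.46 RPM, and adipocyte markers were lower with a list median of -1.46, from 462 to 671 RPM in WT_IgG to 99.6 to 395 RPM in KO_IgG replicates 1 to 3. The list medians of dendritic cell (5 tested genes) and lymphocyte markers (6 tested genes) were -0.64 and -0.59. The whole lymphocyte list summed to only 4.91 to 10.8 RPM in KO_IgG replicates 1 to 3 and 7.72 to 16.5 RPM in WT_IgG. The part of all these cells in the lower members was not tested.

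No difference between the effects of antibody and knockout was called for a member. The difference, tested as an interaction over the 18 libraries, ranged from -0.46 ± 0.26 (Spp1) to 0.33 ± 0.27 (Lgals3) on the log2 scale (adjusted p = 0.738 to 0.973 by limma). Of 15704 genes, 2 (0.0127%) were called in this test, with 1216 at an unadjusted p under 0.05.

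The control cohorts of both experiments were WT tumors given isotype antibody, and they share the IgG libraries with the antibody comparison and the WT_IgG libraries with the knockout comparison. WT_IgG tumors had lower means than IgG tumors for all 10 genes, and for 37.3% of all genes. The median log2 difference of the 10 was -0.48 against 0.12 over all genes. Trem2 measured 151 ± 29.2 against 220 ± 35.5 RPM (n = 4 and 5), a log2 difference of -0.55 ± 0.16 (adjusted p = 0.127 by limma), Gpnmb differed by -0.57 ± 0.22 and Lyz2 by -0.55 ± 0.23. None of the 10 was called by limma, while DESeq2 called Gpnmb (-0.67), Lyz2 (-0.66) and Trem2 (-0.65). Called genes were 30 of 15693 (0.191%), all higher in WT_IgG, while DESeq2 called 354 higher and 388 lower. Experiment, isotype and schedule cannot be told apart here.

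At an unadjusted p under 0.05, 8 members were lower between the cohorts, against 5% of all genes, and none was higher, against 14.9%. The count was 1 without WT_IgG replicate 4 and 2 without IgG replicate 1, 4 without WT_IgG replicate 3, and 5 without WT_IgG replicate 1 or IgG replicate 5. Spp1 differed by -0.04 ± 0.18, and turned to 0.09 without WT_IgG replicate 4, 0.05 without IgG replicate 1 and 0.02 without IgG replicate 3. The shift of 0.12 over all genes shrank to 0.01 with TMM scaling, which put the median of the members at -0.59.

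Adipocyte genes were the ones called in the lists. Of 9 adipocyte markers, 7 were higher in WT_IgG than in IgG (limma, adjusted p under the threshold), among them Fabp4 with 112 ± 26.1 against 31.6 ± 10.4 RPM and Plin4 with 23.3 ± 9.41 against 2.16 ± 1.40 RPM. The others were Adipoq, Plin1, Cidec, Cfd and Car3. The summed adipocyte level was 462 to 671 RPM in WT_IgG and 48.6 to 129 RPM in IgG, without overlap, and its part in the lower members was not tested. Of the program's lists, Trem2 partners were led by Clec4d (-0.64 ± 0.19) and Cd63 (-0.37 ± 0.12), lipid genes by the cholesterol ester hydrolase Nceh1 (-0.58 ± 0.15) and the esterifying enzyme Soat1 (-0.55 ± 0.15), and lysosomal genes by Atp6v0d2 (-0.58 ± 0.19) and Lamp1 (-0.38 ± 0.13). Among macrophage identity genes Fcer1g (-0.46 ± 0.16) and Adgre1 (-0.37 ± 0.13) had the smallest p, among regulators Rxra (0.50 ± 0.14) and Mitf (-0.48 ± 0.16), among ligands Il34 (0.87 ± 0.29) and Csf1 (0.40 ± 0.28) and among osteopontin receptors Itgav (0.36 ± 0.15) and Itga4 (-0.30 ± 0.17). List medians were 1.47 for lymphocyte (5 tested genes), 0.98 for fibroblast, 0.52 for monocyte and -0.81 for neutrophil markers (5 tested genes). The whole lymphocyte list summed to only 7.72 to 16.5 RPM in WT_IgG and 1.34 to 12.1 RPM in IgG. None of these genes passed the adjusted threshold.

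**Figure D5:**
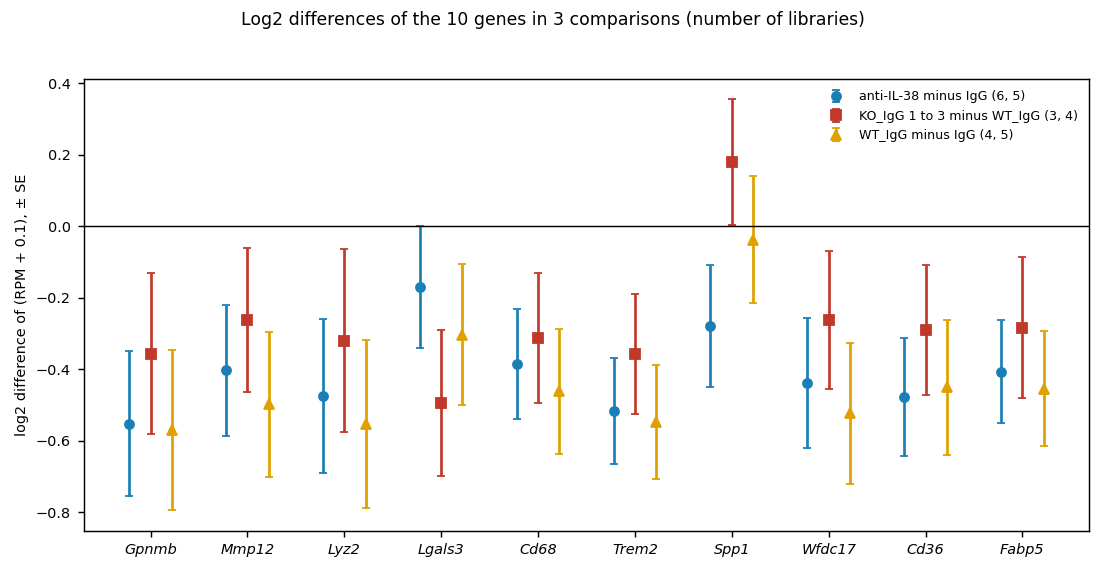
Log2 difference of (RPM + 0.1) of the 10 genes in 3 comparisons, with error bars of 1 SE from limma and the number of libraries in each group in the legend. All values but that of Spp1 in the knockout comparison are below 0, from -0.57 to -0.04, and no gene passed the adjusted threshold.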

How the data were processed

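Libraries were prepared from total tumor RNA with QuantSeq, which sequences the 3′ ends of transcripts (single reads, BlueBee QuantSeq pipeline). The submitters' processing notes name STAR, HTSeq, DESeq2 and GRCm39 without roles. The deposited values are a signal: read counts that the authors divided by a size factor per library, in a table of 19 libraries and one of 8. The 4 KO_IgG libraries stand in both with identical reads. Dividing each value by the smallest nonzero value of its column gave whole reads for 100% of values within 0.0001%. In WT_IgG replicate 1 this value was so near 1 that recovery could not be checked. Reads were scaled to reads per 1000000 (RPM). Since PCR copies cannot be recognised here, the limits at 0 and the counting errors cover counting only. Of 47643 identifiers, 47224 had a symbol in GENCODE M21, and promoters came from RefSeq on GRCm38.p6, which differs from the build named above, so coordinates are given for these promoters only, on that assembly.

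The members and lists were chosen with earlier results of these data known. Genes named are the 10 members, in each list those called or else the 2 with the smallest p (for cell type markers, medians and examples), the 10 non-members most like Gpnmb, and examples from the lists chosen after their values were seen. Some genes that this rule names are not reported here. Genes with a mean of at least 0.5 RPM in the libraries of a comparison were tested on log2(RPM + 0.1) by limma (version 3.58.1, R version 4.3.3), using a moderated variance trend, two-sided p and Benjamini-Hochberg adjustment at 0.05. Differences on this scale understate changes of low genes. KO_IgG replicate 4 was left out of the knockout test because it had served to select the members. Alternatives were the deposited normalized counts, TMM, pseudocounts of 0.02 and 0.5 RPM, no filter or 2 RPM, edgeR 4.0.16, DESeq2 1.42.0, a replicate block and leaving out each library. On simulated reads with known changes, limma recovered 100%, 94% and 99% of 100 genes changed by 1 on the log2 scale in the antibody, knockout and cohort comparisons (15513, 15918 and 15693 genes). The simulation gave all genes the same fixed spread and changed only well-expressed genes. Differences as small as those of the members were not simulated, so recovery at their size is not known. No 2 libraries of a group were duplicates (chi-square per degree of freedom 15.9 to 125). The column names give each library its own number, but the labels do not state that it stands for an animal. The name of KO_gdTCR replicate 3 also bears the mark rep, which is not explained. The p-values therefore measure only the spread between these samples, which may be technical. Depth was 6273049 to 15879164 reads.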

Additional observations from a re-analysis of the deposited data

Results flagged for a closer look

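Each of the 10 genes was examined in each of the 5 groups for a library far from the others, which makes 50 checks, and about 1 in 20 such checks picks out a library by chance. A library stood apart in 5 of them. KO_gdTCR replicate 4 lay above the other 3 of its group for Gpnmb (107 RPM), Mmp12 (42.8 RPM) and Trem2 (17.3 RPM). KO_IgG replicate 4 lay below the other 3 of its group for Lgals3 (150 RPM), which restates the selection, since the genes were chosen by low values in that library. KO_gdTCR replicate 2 lay above the others for Spp1 (1249 RPM). In KO_gdTCR replicate 4 the levels of Gpnmb, Mmp12 and Lyz2 were close to those of KO_IgG replicate 4 (118, 45.1 and 494 RPM). No difference between the antibody and knockout effects was called for the 10 genes.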

How the results depend on the processing

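The median log2 difference of the members stayed below 0 in every comparison under every alternative, from -0.50 to -0.34 for anti-IL-38 against IgG. The counts of genes called over all genes depended on the setting. For anti-IL-38 against IgG they were 0 as reported and 75 with DESeq2, and 0 to 5 when single libraries were left out, with 5 without IgG replicate 3. For KO against WT they were 4 as reported, 7 on the authors' normalized counts, 15 with TMM, 10 with edgeR, 486 with DESeq2 and 1 with KO_IgG replicate 4, which also moved the median of the members to -1.11 and Spp1 to -0.10. Leaving out single libraries gave 1 to 35, with 18 without KO_IgG replicate 1 and 35 without WT_IgG replicate 3. For WT_IgG against IgG they were 30 as reported, 13 on the authors' normalized counts, 11 with TMM, 15 and 46 with pseudocounts of 0.02 and 0.5 RPM, 11 with edgeR and 742 with DESeq2. Leaving out single libraries gave 0 to 61, with 0 without WT_IgG replicate 4 and 61 without IgG replicate 1, and turned the log2 difference of Spp1 to 0.087 (without WT_IgG replicate 4), 0.049 (without IgG replicate 1) and 0.019 (without IgG replicate 3), within a range of -0.14 to 0.087. The cause of these changes was not tested. The labels share replicate numbers, but the deviations of same-numbered libraries correlated at -0.12 to 0.08 over 12 pairs, and 3 of 12 libraries correlated best with their own number. With a replicate block 110 genes were called for KO against WT, 78 for WT_IgG against IgG and 0 for anti-IL-38 against IgG, and no member in any. The correlation of Lgals3 with Gpnmb was 0.79 without centring on group means and 0.86 within WT_IgG and KO_IgG replicates 1 to 3, and that of Spp1 was 0.22 without centring.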
